A study of Homo sapiens with 2 samples.

Results

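The 10 genes described here mark neuroendocrine cells or build their secretory granules: CHGA, SYP, NCAM1, INSM1, SCG5, CPE, PCSK1N, NTS, DDC and UCHL1. They were taken by gene symbol, and all 10 were found among the 26475 symbols listed for each library, of which 26447 were used. The cells were of the human prostate cancer line C4-2B ENZR, which grows in the presence of enzalutamide, an antiandrogen drug. The NRP2 knockdown library came from cells given a lentiviral short hairpin RNA against the coding region of NRP2, and the control library from cells given a non-targeting hairpin. Cells of both groups had gone through lentiviral infection and antibiotic selection and grew in RPMI 1640 with serum, antibiotics and 20 µM enzalutamide. The labels describe a single hairpin against NRP2 and give the control genotype as WT; they do not say how many clones or cultures went into a library. Each group is 1 library, so no difference has a replicate check and no p-value is given. By its title the series concerns NRP2, the co-receptor neuropilin-2, in neuroendocrine prostate cancer, and the comparison asks how these genes stood when NRP2 was targeted.

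Neuroendocrine cells store peptide hormones and amines in dense-core granules and release them on demand. Granins such as chromogranin A help to form the granule, prohormone convertases cut the peptide precursors at basic residues, and carboxypeptidase E trims the ends that are left. In the prostate such cells are rare, and tumours under hormone treatment can gain these genes, which pathologists use as markers. In RNA from bulk cells, fewer cells of a kind and less RNA in each cell cannot be told apart.

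Some of the 10 genes were well expressed and others nearly silent, in the same way in both libraries. CPE, PCSK1N and DDC each had more than 800 reads in each library, NTS had 59 reads in the knockdown library and 101 in the control, and the markers most used in diagnosis, CHGA, SYP, NCAM1 and INSM1, had at most 31 reads in the knockdown library and at most 45 in the control. Values are counts per 1000000 reads scaled by the authors with the TMM method (CPM), and 1 read was worth 0.0472 CPM in the knockdown library and 0.0487 CPM in the control. Differences are given as log2((knockdown CPM + 1)/(control CPM + 1)), which understates changes of low genes, and as plain ratios of CPM with exact 95% counting intervals from the recovered reads. These intervals cover counting error only.

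Promoter sequences are shown for 3 genes that stand for the 3 kinds of result, CHGA (1 read in each library), PCSK1N (higher in the knockdown) and NTS (lower). They are the 250 bases before the RefSeq start on GRCh38.p14, another build than the hg19 the submitters name, and 8 of the 10 genes had an entry. Both strands were searched for the cyclic AMP response element TGACGTCA and its core TGACG, which overlaps it, the AP-1 site TGACTCA, the REST element parts CAGCACC and GGACAG, and the E-box CAGCTG; capitals mark every match, which reads CGTCA or TGAGTCA where the core or the AP-1 site lies on the other strand. The CHGA window is chr14:92922900-92923149 (plus strand), the PCSK1N window chrX:48835611-48835860 (minus strand) and the NTS window chr12:85874045-85874294 (plus strand).
CHGA: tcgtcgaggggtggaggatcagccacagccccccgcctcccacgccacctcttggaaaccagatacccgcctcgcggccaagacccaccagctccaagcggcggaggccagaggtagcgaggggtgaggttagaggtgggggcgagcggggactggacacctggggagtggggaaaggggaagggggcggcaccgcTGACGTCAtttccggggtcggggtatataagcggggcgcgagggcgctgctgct
PCSK1N: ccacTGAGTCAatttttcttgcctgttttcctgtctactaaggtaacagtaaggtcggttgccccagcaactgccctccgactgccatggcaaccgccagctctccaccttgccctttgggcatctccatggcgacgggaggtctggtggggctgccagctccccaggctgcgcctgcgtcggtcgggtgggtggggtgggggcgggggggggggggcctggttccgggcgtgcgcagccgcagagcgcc
NTS: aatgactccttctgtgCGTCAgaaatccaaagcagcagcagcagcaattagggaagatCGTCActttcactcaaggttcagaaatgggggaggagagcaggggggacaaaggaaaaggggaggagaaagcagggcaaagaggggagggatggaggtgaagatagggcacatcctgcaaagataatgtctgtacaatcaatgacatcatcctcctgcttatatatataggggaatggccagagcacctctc

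The full cyclic AMP response element stood in the CHGA window, 54 to 47 bases before the start, and in 1.65% of 35116 promoter windows. The core TGACG was in 4 of the 8 windows, those of CHGA, SCG5, CPE and NTS, against 21.2% of all windows. The AP-1 site was in the PCSK1N window, 246 to 240 bases before the start, against 4.20% of all. CAGCACC (6.16% of all windows) was in none of the 8, and so were GGACAG (17.2%) and the E-box (14.0%). G and C made up 68.8% of the CHGA window, 66.8% of the PCSK1N window and 49.2% of the NTS window, and the median over all windows was 58.0%. A match is only a match of letters, and binding was not measured.

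The libraries held 22992304 reads on genes in the knockdown and 21052178 in the control. NRP2 itself had 7 reads in the knockdown library and 20 in the control, 0.330 and 0.974 CPM, a ratio 2.95-fold lower (1.2 to 8.26). All 13 prostate epithelial markers reached 1 CPM, with the surface antigen gene FOLH1 at 1053 CPM in the knockdown and 1187 CPM in the control. KLK3, KLK2 and TMPRSS2 of that list were at least 1.5-fold higher, TMPRSS2 not so with both libraries set to equal totals. The 10 fibroblast and smooth muscle markers summed to 39.1 CPM in the knockdown and 48.8 CPM in the control, mostly COL1A1 (32.5 and 41.5 CPM), with PDGFRB at 1.89 and 2.43 CPM and DCN and DES at 0. The 10 immune and endothelial markers summed to 14.8 and 11.5 CPM, led by CD68 (9.95 and 6.67 CPM) and VWF (3.40 and 3.75 CPM), and PTPRC had 1 and 5 reads. The 8 nerve and glial markers summed to 3.68 CPM in the knockdown and 2.09 CPM in the control, with RBFOX1 and SLC17A6 at 0. The part of other cell types in the values below was not tested.

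**Figure D1:**
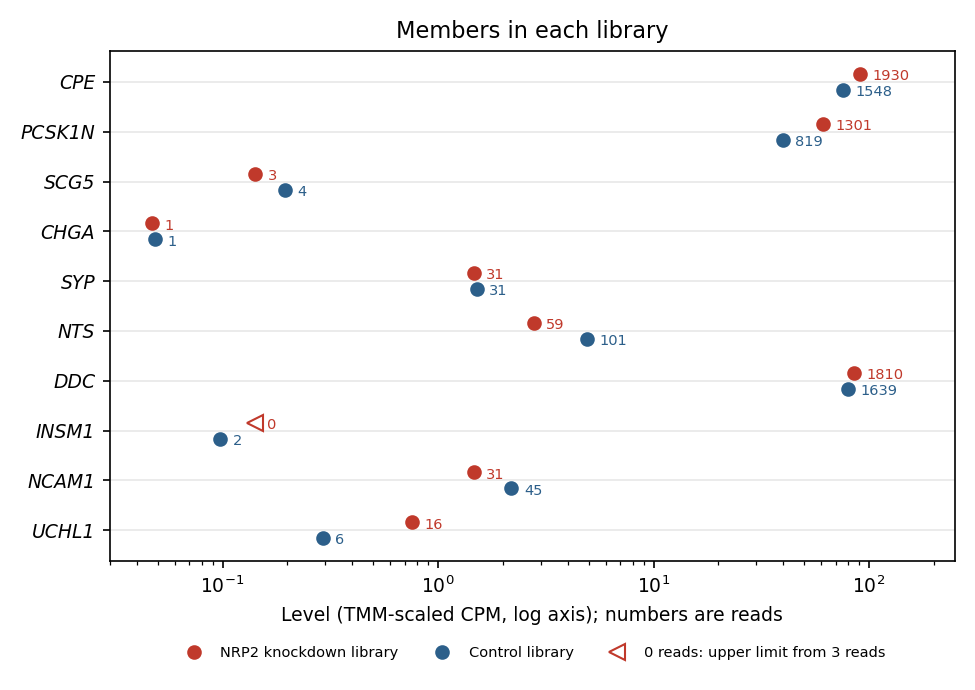
Level of each of the 10 genes in the NRP2 knockdown library (red) and the control library (blue), in CPM on a log axis, with the recovered reads beside each point. CPE, PCSK1N and DDC lie between 39.9 and 91.0 CPM, NTS, SYP and NCAM1 between 1 and 5 CPM, and the rest below 1 CPM; the open triangle is the limit that 0 reads of INSM1 allow.

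Reads accumulate on long transcripts, so levels of different genes were compared per kilobase of transcript (CPM per kilobase). In the knockdown library PCSK1N stood first at 58.4 CPM per kilobase, ahead of DDC at 41.8 and CPE at 37.6. In the control library DDC at 39.1 and PCSK1N at 38.0 CPM per kilobase did not differ beyond counting error, and CPE followed at 31.1. NTS came after these 3 in both, at 2.25 CPM per kilobase in the knockdown library and 3.98 in the control. Below NTS, UCHL1, SYP, NCAM1, SCG5, CHGA and INSM1 lay under 1 CPM per kilobase, and no neighbours in that order differed beyond counting error in the control library; in the knockdown library SYP (0.585) lay above NCAM1 (0.25). Among 18504 genes with a length, PCSK1N stood at percentile 92.0 of levels per kilobase in the knockdown library and 88.1 in the control, whereas CHGA stood at 23.1 and 24.0. The lengths, 1.05 to 5.84 kilobases, are of protein-coding transcripts in another annotation, so these levels are approximate.

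Against the whole transcriptome, few genes passed 1.5-fold. There were 13316 genes whose mean of the 2 libraries reached 1 CPM, of which 769 (5.78%) were at least 1.5-fold higher in the knockdown library on the log2(CPM + 1) scale and 476 (3.57%) at least 1.5-fold lower. With both libraries set to equal totals, 587 were higher and 646 lower. Of the 10 neuroendocrine genes, 6 reached that mean, and of these PCSK1N was past 1.5-fold upward, NTS downward and 4 lay between; SCG5, CHGA, INSM1 and UCHL1 were too low to be compared this way. The median log2 change of the 6 was 0.03, the same as that of all compared genes. By the counting interval, 3 of the 6 (PCSK1N, CPE and DDC) were higher, where 32.7% of all compared genes were. Of the same 6, NTS was lower, where 24.0% were. The intervals of SCG5, CHGA, INSM1 and UCHL1 all included 1.

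**Figure D2:**
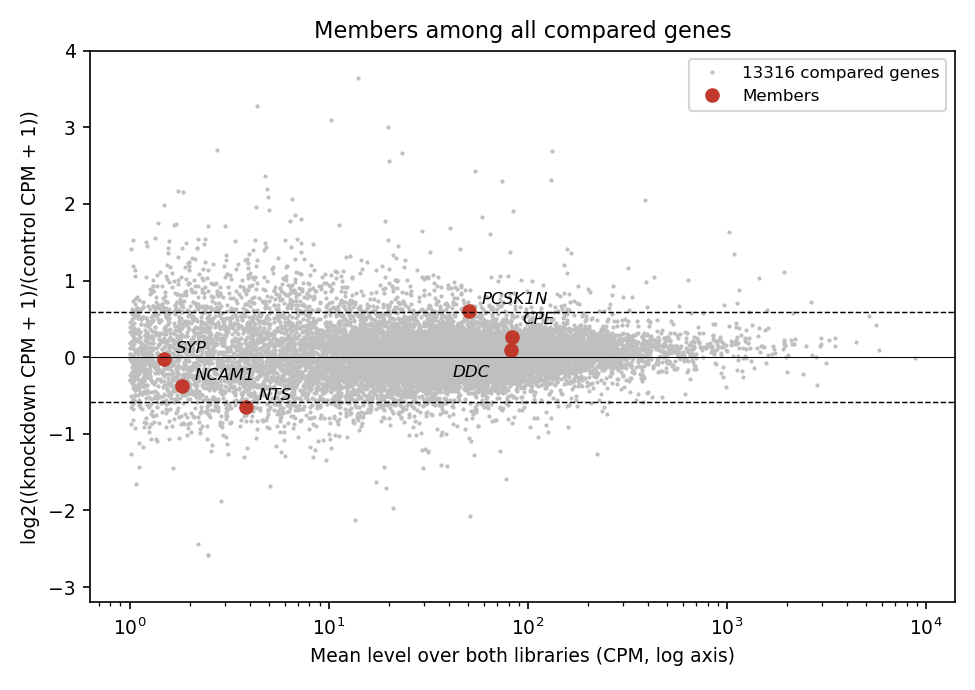
Log2 change against the mean level in CPM (log axis) for the 13316 compared genes (grey) and the 6 neuroendocrine genes that reached a mean of 1 CPM (red). Dashed lines mark 1.5-fold; PCSK1N lies just above the upper line and NTS just below the lower one, and CPE, DDC, SYP and NCAM1 lie between.

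PCSK1N encodes proSAAS, a granule protein whose processed form inhibits the prohormone convertase PC1/3. It was at 61.4 CPM in the knockdown library and 39.9 CPM in the control, from 1301 and 819 reads. The knockdown library was the higher one by 1.54-fold (1.41 to 1.68), a log2 change of 0.61. Among genes with a mean of 10 to 100 CPM, 3.60% were at least 1.5-fold higher. This difference lies at the threshold: the log2 change was 0.53 with both libraries set to equal totals, below the 0.58 that 1.5-fold needs, while the counting interval of the ratio then ran from 1.33 to 1.59.

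CPE encodes carboxypeptidase E, which removes basic residues from peptide intermediates inside granules. It was at 91.0 CPM in the knockdown library and 75.4 CPM in the control (1930 and 1548 reads). The ratio was 1.21-fold higher (1.13 to 1.29), short of 1.5-fold. SCG5 encodes 7B2, a chaperone needed to activate the convertase PC2. It had 3 reads in the knockdown library and 4 in the control, 0.141 and 0.195 CPM, and a ratio of 0.727 whose counting interval, 0.106 to 4.29, allows a large change in either direction.

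The convertases that these proteins serve had few or no reads. PCSK1, which encodes PC1/3, had 0 reads in both libraries, which allows up to 0.141 CPM in the knockdown and 0.146 CPM in the control. PCSK2, which encodes PC2, had 0 reads in the knockdown library and 2 in the control. Convertases of the general secretory pathway were present: FURIN, picked out after its values were seen, was at 37.8 CPM in the knockdown and 50.6 CPM in the control. Of 17 other processing enzymes, 10 were compared, 1 was at least 1.5-fold higher and 0 lower, against 5.78% and 3.57% of all compared genes. The one past 1.5-fold was PAM, which amidates the ends of peptide hormones, at 18.1 CPM in the knockdown library and 8.23 CPM in the control, 2.20-fold higher (1.83 to 2.65). The carboxypeptidase gene CPD was at 157 and 121 CPM, and MBTPS1, a protease of the Golgi, at 103 and 100.4 CPM.

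CHGA, which encodes chromogranin A, had 1 read in each library, 0.0472 CPM in the knockdown and 0.0487 CPM in the control. A single read a side carries almost no information on a change, and the counting interval of the ratio ran from 0.0123 to 76.0. The other granins were as scarce: CHGB had 2 reads in the knockdown library and 0 in the control, SCG2 had 3 and 1, and SCG3 had 2 and 0. VGF, a granin-related peptide precursor, was the exception, at 5.19 CPM in the knockdown and 5.70 CPM in the control. Of 18 other granin and granule genes, 10 were compared, with a median log2 change of -0.03 against 0.03 for all genes. Among those compared, 1 was at least 1.5-fold higher and 1 lower, against 5.78% and 3.57% of all compared genes. The higher one was PTPRN2, a membrane protein of granules, at 7.73 CPM in the knockdown and 4.58 CPM in the control (1.69-fold, 1.30 to 2.20), which fell short of 1.5-fold at equal totals. The lower one was BSN, at 2.03 and 4.43 CPM (2.18-fold lower, 1.5 to 3.22). It was counted in this list although it encodes a presynaptic scaffold, bassoon, and not a granin. With a pseudocount of 5 CPM, PTPRN2 (0.41) and BSN (-0.42) both fell short of 1.5-fold. CYB561, a cytochrome of granule membranes, had the highest CPM of the list, 480 and 431, followed by HID1, a Golgi protein of granule formation, at 180 and 153 CPM. PTPRN, the close relative of PTPRN2, had 12 reads in the knockdown library and 0 in the control, and the counting interval of the ratio began at 2.69; it was picked out after its reads were seen.

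SYP encodes synaptophysin, a membrane protein of small synaptic vesicles. It had 31 reads in each library, 1.46 CPM in the knockdown and 1.51 CPM in the control. The ratio was 0.969, with a counting interval from 0.570 to 1.65, so changes within that range were not detectable at this depth. Relatives of synaptophysin that are found outside neurons were abundant: SYPL1 was at 135 CPM in the knockdown library and 105 CPM in the control, and SYNGR2 at 291 and 259 CPM. Of 14 synaptic vesicle genes, 8 were compared, 2 were at least 1.5-fold higher and 0 lower, against 5.78% and 3.57% of all compared genes. Those 2 were synaptogyrins, SYNGR1 at 39.3 CPM in the knockdown and 20.9 CPM in the control (1.88-fold, 1.67 to 2.12) and SYNGR3 at 8.30 and 3.60 CPM (2.30-fold, 1.75 to 3.07).

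NTS encodes the precursor of neurotensin and neuromedin N, peptides cut from the same chain by convertases. It was at 2.78 CPM in the knockdown library and 4.92 CPM in the control, from 59 and 101 reads. The knockdown library was the lower one by 1.77-fold (1.27 to 2.48), a log2 change of -0.65. At low levels such differences were more frequent: among genes with a mean of 1 to 10 CPM, 7.65% were at least 1.5-fold lower. NTS kept its direction with equal totals (-0.70), and with a pseudocount of 5 CPM its change shrank to -0.35. The receptor genes NTSR1 and NTSR2 had 8 and 5 reads in the knockdown library and 3 and 0 in the control, while SORT1, the sorting receptor sortilin that also binds neurotensin, was at 52.5 CPM in the knockdown and 40.6 CPM in the control, and its relative SORL1 at 98.1 and 91.4 CPM. Of 5 receptor genes listed, 2 were compared and 0 passed 1.5-fold, where 5.78% of all compared genes were higher and 3.57% lower.

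Of 33 other peptide hormone genes, 15 had no read in either library, 10 were compared, 3 were at least 1.5-fold higher and 0 lower, against 5.78% and 3.57% of all compared genes. STC1, the secreted glycoprotein stanniocalcin-1, was at 44.8 CPM in the knockdown and 13.7 CPM in the control, 3.28-fold higher (2.86 to 3.75). NPPC, the C-type natriuretic peptide, was at 4.53 and 1.61 CPM, 2.82-fold higher (1.88 to 4.32). GAL, the neuropeptide galanin, was at 74.6 CPM in the knockdown and 49.1 CPM in the control, 1.52-fold higher (1.40 to 1.65), and like PCSK1N it missed 1.5-fold at equal totals. STC2, a relative of STC1, was at 118 CPM in the knockdown and 104 CPM in the control. Over the 10 the median log2 change was 0.41, against 0.03 for all genes. The 10 include AGR2, which the tables name as a protein disulphide isomerase family member and not as a peptide hormone. STC1, NPPC and GAL were named because they were higher, so their contrast in direction with NTS follows from that choice. Whether any of these differences exceeds the spread between cultures was not tested.

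DDC encodes aromatic L-amino acid decarboxylase, the enzyme that makes dopamine and serotonin from their precursors. It was at 85.4 CPM in the knockdown library and 79.8 CPM in the control (1810 and 1639 reads). The ratio was 1.07, and its counting interval ran from 1.0001 to 1.14, so close to 1 that at equal totals it included 1 (0.945 to 1.08). The enzymes that feed DDC were not seen at such levels: TH had 2 reads in each library and TPH1 had 0 in both. Of the vesicular amine transporters, SLC18A2 was at 6.13 CPM in the knockdown and 6.18 CPM in the control and SLC18A1 had 0 reads in both. Of 20 amine genes, 8 were compared and 0 passed 1.5-fold, where 5.78% of all compared genes were higher and 3.57% lower. MAOA, which degrades serotonin and dopamine, was at 517 CPM in the knockdown and 368 CPM in the control.

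INSM1, a zinc finger factor of neuroendocrine differentiation, had 0 reads in the knockdown library and 2 in the control, both at or under the limit of 3 reads, so no fold is given. Its relative INSM2 and the factor NEUROD1 had 0 reads in both libraries. REST, a repressor of neuronal genes, was at 73.1 CPM in the knockdown library and 76.9 CPM in the control, and ONECUT2 at 20.3 and 23.6 CPM. Of 20 factors listed, 9 had no read in either library and 5 were compared. Among those compared, 1 was at least 1.5-fold higher and 0 lower, against 5.78% and 3.57% of all compared genes. The higher one was POU2F3, the factor of tuft cells, at 2.92 and 0.925 CPM (62 and 19 reads, 3.16-fold higher, 1.87 to 5.60). ISL1, picked out after its reads were seen, had 0 reads in the knockdown library and 12 in the control, and the counting interval of the fold by which it was lower began at 2.87.

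NCAM1, the adhesion molecule CD56, was at 1.46 CPM in the knockdown library and 2.19 CPM in the control, from 31 and 45 reads. Its log2 change was -0.37, short of the 1.5-fold threshold. The ratio was 1.498-fold lower, and the counting interval of that fold, 0.928 to 2.45, included no difference. Its paralog NCAM2 lay at 11.8 CPM per kilobase in the knockdown library and 20.5 in the control, against 0.25 and 0.375 for NCAM1. NCAM2 was 1.75-fold lower (1.65 to 1.85), at 95.6 CPM in the knockdown and 167 CPM in the control, and passed 1.5-fold under every pseudocount, filter and scaling tried. UCHL1, a ubiquitin hydrolase of neurons known as PGP9.5, had 16 reads in the knockdown library and 6 in the control, 0.755 and 0.292 CPM. Its ratio of 2.58 came with a counting interval from 0.960 to 8.06, which included no difference. The other 3 family members were expressed and 0 passed 1.5-fold, where 5.78% of all compared genes were higher and 3.57% lower. UCHL3 was at 34.9 CPM in the knockdown and 31.3 CPM in the control, UCHL5 at 61.5 and 53.2 CPM and BAP1 at 113 and 127 CPM.

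**Figure D3:**
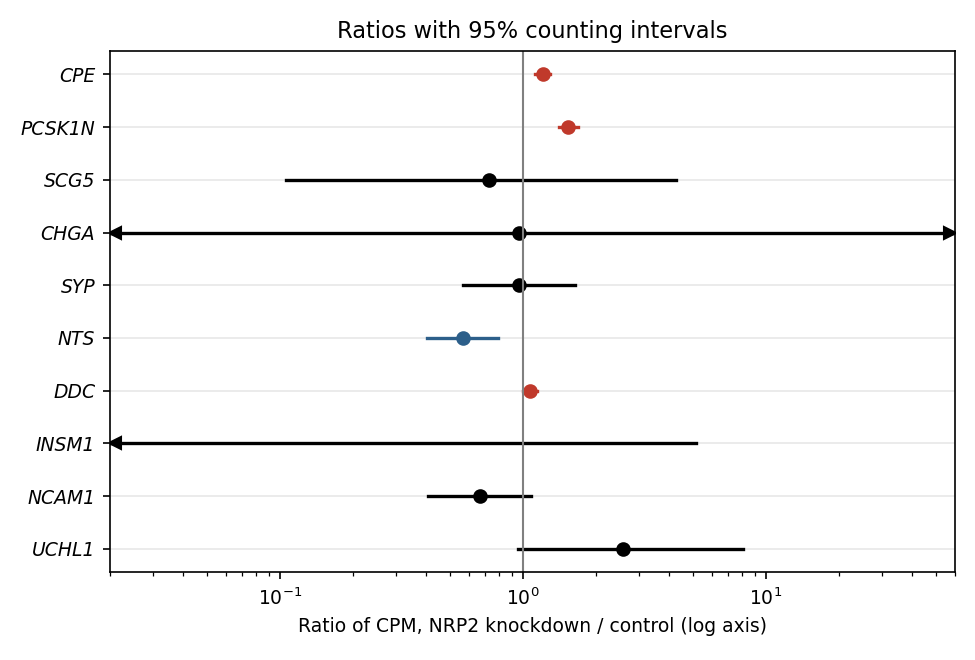
Ratio of CPM in the NRP2 knockdown library over the control library for the 10 genes (log axis), with exact 95% counting intervals; red intervals lie above 1, blue below 1 and black ones include 1. PCSK1N, CPE and DDC lie above 1 and NTS below it; arrows mark intervals that run past the axis, and INSM1, with 0 knockdown reads, has no point.

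Of 27 further neuroendocrine and neuronal markers, 10 were compared. Among those compared, 1 was at least 1.5-fold higher and 2 were lower, against 5.78% and 3.57% of all compared genes. ENO2, the neuron-specific enolase of glycolysis, stood at 211 CPM in the knockdown library and 91.3 CPM in the control, 2.31-fold higher. Besides NCAM2, the lower one was TUBB3, the neuronal beta-tubulin, at 20.2 CPM in the knockdown and 31.9 CPM in the control (1.58-fold lower, 1.40 to 1.79). STMN1, a regulator of microtubules, was at 197 and 227 CPM. Over all 9 lists, with 157 genes besides the 10, 66 were compared and 43 had no read in either library. Of those compared, 9 were higher by 1.5-fold or more, where 5.78% of all compared genes were, and 3 were lower, where 3.57% were.

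**Figure D4:**
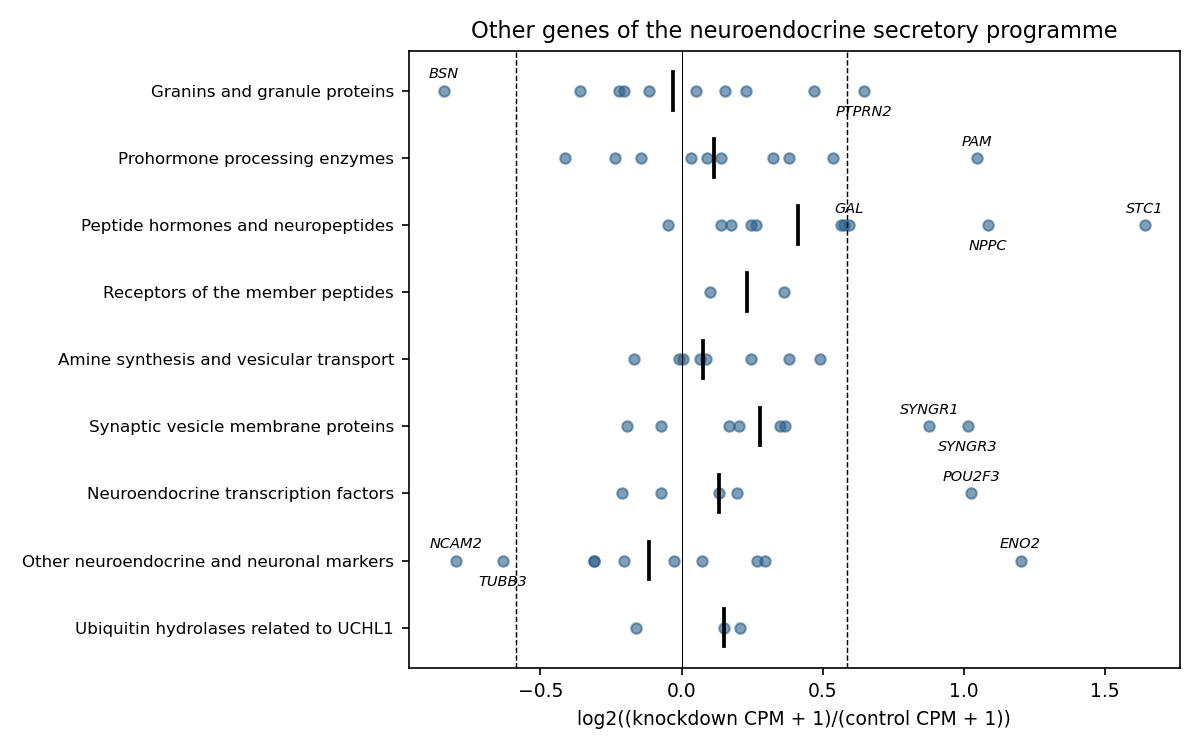
Log2 change of each compared gene in 9 lists of related genes (points) with the median of each list (bar); dashed lines mark 1.5-fold and named genes lie past it. The 9 higher ones are STC1, NPPC and GAL of the peptide list, PAM, PTPRN2, SYNGR1, SYNGR3, POU2F3 and ENO2. The lower ones are BSN, NCAM2 and TUBB3.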

How the data were processed

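The 2 deposited tables give a signal per gene symbol: read counts that the authors scaled by TMM to counts per 1000000 (CPM), per the labels. The submitters' processing notes name bcl2fastq 2.17, RSEM 1.2.15, Bowtie2 2.1.0, edgeR and hg19. Annotation, filters and strand setting are not given. The columns sum to 1084413 in the knockdown and 1024943 in the control, so the scaling factors they imply, 0.922 and 0.976, do not multiply to 1 as TMM factors of these 2 libraries would (edgeR gave 0.983 and 1.017). How the authors set them is not given, and it bears on every ratio between the libraries. All values (100% in each, within 0.01 read) were whole multiples of 1 read's value, so whole reads were recovered. Of the 26475 symbols, 28 turned into dates were left out (0.184% and 0.181% of reads).

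Calculations used Python 3.11.15, scipy 1.17.1 and edgeR 4.0.16. Ratio intervals are exact conditional binomial (Clopper-Pearson) at 95%, and 0 reads allow up to 3. Without replicates no count model was fitted: by interval 4360 genes lay above 1 and 3199 below. The design had assumed CPM, and the signal was used as such. Lengths are of the longest principal protein-coding transcript in GENCODE 29 (89.8% of compared genes). The antisense genes DDC-AS1, NCAM1-AS1, SYP-AS1 and UCHL1-AS1 were at 0 reads in both libraries. Promoters came from RefSeq. The 10 genes and the lists were chosen with earlier results of these data known. Named genes are the 10, list members past 1.5-fold, the 2 of each list with the highest CPM and set relatives of the 10. Some of these are not reported here. Interval code was tested on simulated data. Alternatives were pseudocounts, filters, scalings, a 2-fold threshold and the counting interval, plus edgeR TMM factors, chosen after seeing the data.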

Additional observations from a re-analysis of the deposited data

How the results depend on the processing

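The members past 1.5-fold, 1 higher (PCSK1N) and 1 lower (NTS), depended on the settings. With a pseudocount of 5 CPM or a 2-fold threshold there were 0 higher and 0 lower. With equal totals, a median log2 ratio of 0 or edgeR TMM factors there were 0 higher and 1 lower, as PCSK1N stood at log2 changes of 0.53, 0.58 and 0.58. With a mean of at least 5 CPM there were 1 higher and 0 lower, since NTS was then not compared, and by the counting interval 3 higher and 1 lower. With equal totals, a median log2 ratio of 0 or edgeR TMM factors, PCSK1N stayed above 0 and NTS below 0. The pseudocounts, thresholds and filters could not have changed either sign. Over all genes, 329 were higher and 159 lower with a pseudocount of 5 CPM, 465 and 310 with a mean of at least 5 CPM, 194 and 70 at 2-fold, and 4360 and 3199 by the counting interval, against 769 and 476. Over the 9 lists, 5 were higher and 1 lower with a pseudocount of 5 CPM, 5 lower without a filter, 0 lower at 2-fold, and 32 higher and 11 lower by the counting interval, against 9 and 3. Each of these settings changes the threshold, the genes compared or the scale; other causes were not tested. Of 50 log2 changes of the 10 genes under other pseudocounts and scalings, 47 stayed within their counting interval, the others being of INSM1 and UCHL1. For genes with few reads, such as CHGA, the interval is so wide that staying within it says little. For INSM1, with 0 knockdown reads, the lower end of the interval is its own log2 change of -0.13, so any shift downward falls outside. No paired analysis was possible because each group is 1 library, and no replicate could be left out. Depth limits CHGA, INSM1, SCG5 and UCHL1, with at most 16 reads in the knockdown and 6 in the control.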
